A study of Drosophila melanogaster with 14 samples.

Results

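The 9 genes described here encode Tudor-domain proteins and other components of nuage, the perinuclear granule of the Drosophila germline in which piRNAs are amplified. They were taken by name (qin, tej, CG9925, krimp, CG8920, spn-E, BoYb, tud and squ) and form 9 of the 16727 genes counted by RNA sequencing of cultured ovarian somatic cells of Drosophila melanogaster. Each of 4 groups had 2 libraries, made from polyadenylated RNA after 48 hours of RNAi. The control received RNAi against EGFP, a sequence that fly cells lack (EGFP KD). The other groups received RNAi against l(3)mbt (L(3)mbt KD), Lint-1 (Lint-1 KD) or the gene of Lint-O (Lint-O KD), genes for a repressive chromatin protein and for 2 of its interactors. All cells belonged to this cultured type and were grown in medium that contained fly extract, and every group, the control included, underwent RNAi. Whether libraries 1 and 2 were separate cultures is not stated. The p-values therefore reflect the spread between these samples alone, and that spread may be technical.

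piRNAs are small RNAs that guide PIWI proteins to transposon transcripts. In germ cells, the PIWI proteins Aub and AGO3 cut sense and antisense transcripts in turn, the ping-pong cycle, inside nuage built around the helicase Vas. Tudor domains bind methylated arginines, which PIWI proteins carry near their start, and Tudor proteins therefore serve as scaffolds and helicases of the cycle. Follicle cells of the ovary lack nuage and ping-pong, and load Piwi alone in a body organised by the Tudor protein Yb.

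Reads on genes numbered 18293791 to 20978039 per library. Levels are CPM, read counts scaled to library size with TMM normalisation, given per library or as mean ± SD (n = 2), and are compared within a gene only, because transcript lengths were not used. Each RNAi target was lower in both of its own libraries: l(3)mbt stood at 102.7 and 95.9 CPM against 187.3 and 185.7 in the control, Lint-1 at 9.81 and 12.2 against 57.6 and 51.2, and Lint-O (listed as CG2662) at 1.15 and 1.99 against 19.9 and 18.0. The ovarian somatic marker genes summed to 1317 to 1739 CPM in the 8 libraries and all 8 of them had counts, with tj, a transcription factor of gonadal somatic cells, at 258.1 ± 59.0 CPM in the control. That sum is mostly piwi, ptc, tj and fs(1)Yb, and 2 of the lower markers were called: Wnt4, a signalling ligand, rose from 1.07 to 4.39 CPM in L(3)mbt KD (edgeR adjusted p = 0.0171), and eya, a transcription cofactor of follicle cells, rose from 19.2 to 32.3 CPM in L(3)mbt KD (edgeR adjusted p = 0.0224) and to 51.5 in Lint-1 KD (edgeR adjusted p = 0.000846). Hemocyte markers summed to at most 9.57 CPM, neuronal markers to 31.9 and muscle markers to 43.1. Of the counts from 1 to 9, 80.2% were even, and the value 2 occurred 5201 times against 902 times for the value 1, while 49.97% of values of 200 or more were even. Most low counts thus came in pairs, so counting intervals and floors below are based on pairs of counts, with a floor of 3 pairs (6 counts), equal to 0.279 to 0.333 CPM depending on the library. They cover counting error only.

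In the control, qin, tej and CG9925 (now named Kots) were silent or nearly so, whereas krimp, CG8920 (now named tapas), spn-E, BoYb, tud and squ were expressed. The 2 classes are separated at 5 CPM: qin was the highest of the silent members, at 2.22 and 2.81 CPM, and squ the lowest of the expressed ones, at 14.0 and 19.2. All 3 silent members were higher in L(3)mbt KD and in Lint-O KD and 2 of them, qin and tej, in Lint-1 KD. None of the 6 expressed members passed the test in any knockdown. Calls are at a Benjamini-Hochberg adjusted p under 0.05 over 8244 tested genes in edgeR's quasi-likelihood test. Of all tested genes, 9.58% were called higher in L(3)mbt KD, 8.41% in Lint-1 KD and 5.2% in Lint-O KD. The 3 comparisons use the same 2 control libraries.

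The qin gene (dm6, 3R, 18591027 to 18650137) spans 59111 bases. Its protein, with a RING finger and Tudor domains, keeps ping-pong between Aub and AGO3. In the control it had 40 and 54 counts. It stood at 18.7 and 8.49 CPM in L(3)mbt KD, 9.996 and 5.81 in Lint-1 KD and 12.9 and 12.4 in Lint-O KD, against 2.22 and 2.81 in the control. Every knockdown library lay above both control libraries, and the 2 libraries of L(3)mbt KD lay far apart while those of Lint-O KD were close. The log2 fold changes were 2.43 in L(3)mbt KD (SE 0.415, edgeR adjusted p = 0.00511), 1.65 in Lint-1 KD (SE 0.415, edgeR adjusted p = 0.0375) and 2.33 in Lint-O KD (SE 0.415, edgeR adjusted p = 0.00984).

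The rise of qin in L(3)mbt KD was called under all 19 alternatives tried, but its size depended on 1 library: the log2 fold change was 1.73 without L(3)mbt KD 1 (adjusted p = 0.0110) and 2.91 without L(3)mbt KD 2. In Lint-1 KD the call did not survive removal of EGFP KD 1, of EGFP KD 2, of Lint-1 KD 1, of Lint-O KD 1 or of Lint-O KD 2 (adjusted p from 0.0838 to 0.198, log2 fold change 1.19 to 1.83) and with the replicate number as a block (adjusted p = 0.0524). In Lint-O KD it was lost without EGFP KD 1 (adjusted p = 0.0904), Lint-O KD 1 (0.0722) or Lint-O KD 2 (0.0654), with log2 fold changes of 2.20 to 2.37.

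The tej gene (2R, 14300103 to 14302353) encodes Tejas, a Tudor and LOTUS domain protein that brings Vas and Spn-E into nuage. It had 0 and 2 counts in the control, a level at or below the floor. tej entered the test only through its counts in knockdown libraries, so its calls are not independent of that selection. It had 28 and 57 counts in L(3)mbt KD (1.45 and 2.93 CPM), 38 and 28 in Lint-1 KD (1.77 and 1.47 CPM) and 16 and 18 in Lint-O KD (0.838 and 0.944 CPM). All 6 knockdown libraries lay above both control libraries, and both Lint-O KD libraries lay below the other 4 knockdown libraries. Ratios to the 2 control counts were 40.9 in L(3)mbt KD (95% counting interval 6.87 to 1633, edgeR adjusted p = 0.00351), 30.3 in Lint-1 KD (5.07 to 1232, edgeR adjusted p = 0.00722) and 16.6 in Lint-O KD (2.60 to 694.1, edgeR adjusted p = 0.0387). The calls in L(3)mbt KD and Lint-1 KD held under all 19 alternatives. The size rests on the 2 counts of EGFP KD 2: without EGFP KD 1 the fitted log2 fold change went from 5.20 to 4.33 in L(3)mbt KD, from 4.76 to 3.89 in Lint-1 KD and to 3.05 in Lint-O KD, and without EGFP KD 2 the control held no count, so that no fold is given. The call in Lint-O KD did not survive removal of any 1 library of EGFP KD, Lint-1 KD or Lint-O KD (adjusted p from 0.0580 to 0.185), with the replicate block (0.0680), with only the 4 libraries compared (0.0506) and with counts halved (0.0735).

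CG9925 (3R, 13960712 to 13964174) encodes a further Tudor-domain protein. It had no count in either control library, which allows up to 0.333 and 0.312 CPM there. CG9925, like tej, entered the test only through knockdown libraries, and its calls are not independent of that selection. It had 42 and 34 counts in L(3)mbt KD (2.17 and 1.75 CPM), 4 and 6 in Lint-1 KD (0.186 and 0.314 CPM) and 8 and 12 in Lint-O KD (0.419 and 0.629 CPM). The L(3)mbt KD libraries were the highest of the 8, and those of Lint-1 KD stood at or below the floor. Against a floor of 6 counts per library in the control, the level was at least 6.09-fold higher in L(3)mbt KD (edgeR adjusted p = 0.00215) and at least 1.63-fold higher in Lint-O KD (edgeR adjusted p = 0.0325). No fold is given for Lint-1 KD, where the test was not passed (edgeR adjusted p = 0.0755). The call in L(3)mbt KD held under all 19 alternatives. That in Lint-O KD was lost whichever of the 8 libraries was removed, those of L(3)mbt KD and Lint-1 KD included (adjusted p from 0.0601 to 0.158). It was also lost with the replicate block (0.0715) and with counts halved (0.0747), and with only the 4 libraries compared the gene did not pass the filter.

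**Figure D1:**
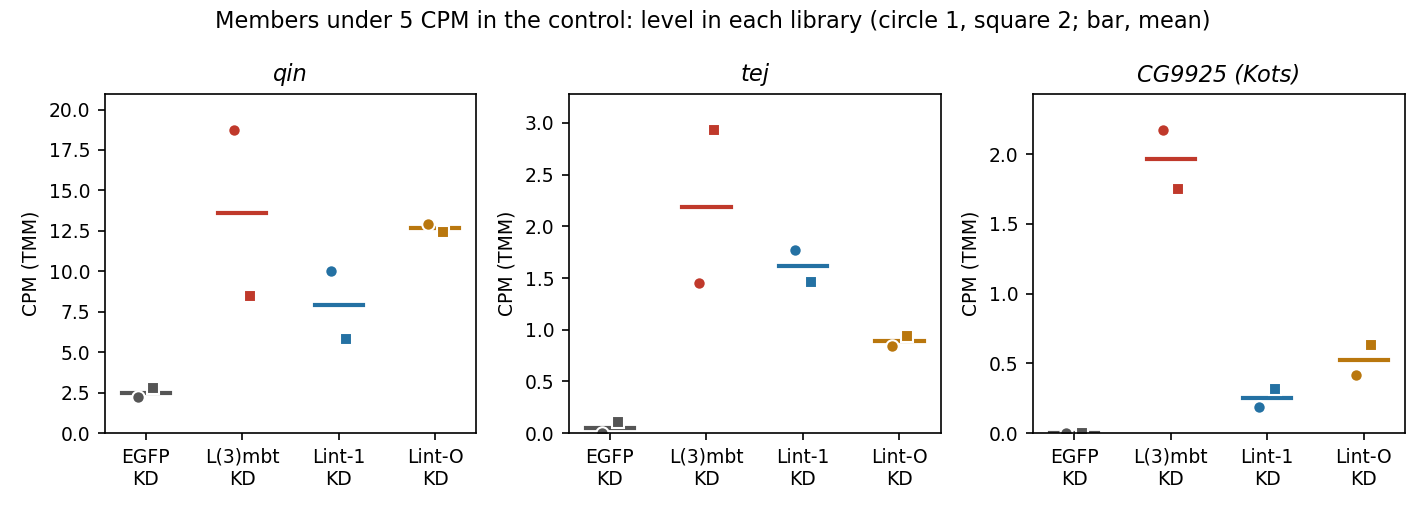
Level of qin, tej and CG9925 in each of the 8 libraries (y axis, TMM-normalised CPM from 0; x axis, group; circle, library 1; square, library 2; bar, mean of the 2). qin stood at 2.22 and 2.81 CPM in the control and at 5.81 CPM or more in every knockdown library, while CG9925 had no count in the control and reached 2.17 CPM in L(3)mbt KD.

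Genes with low control levels were called higher more often than tested genes as a whole. Of the 1728 tested genes under 5 CPM in both control libraries, 27.6% were called higher in L(3)mbt KD, 23.7% in Lint-1 KD and 17.1% in Lint-O KD, and the knockdown libraries lay above the control libraries in 56.4%, 54.0% and 43.6%. Such a gene enters the test only if some group has enough counts, so these shares and the members' counts are not independent of the filter. All 9 members passed it, 2 of them (tej and CG9925) only through knockdown libraries. The 3 silent members were on the higher side, with both libraries above both control libraries, in each knockdown. For tej and CG9925, entry through knockdown libraries made that side likely in advance. In Lint-1 KD, CG9925 had only 4 and 6 counts, at or below the floor.

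Most tested germ cell marker genes moved with the silent members. Of the 10 markers 8 were tested, and 6 of them (vas, nos, bgcn, grk, ovo and Rbp9) were higher in each knockdown. The others tested, bam and orb, were not called in any. bam stood at 9.29 CPM in the control, 14.2 in L(3)mbt KD, 15.9 in Lint-1 KD and 14.4 in Lint-O KD. orb stood at 0.215 CPM in the control, 1.11 in L(3)mbt KD, 0.916 in Lint-1 KD and 0.0524 in Lint-O KD, where it was thus lower. The 10 markers summed to 15.6 and 21.3 CPM in the control libraries, 180.2 to 188.1 in L(3)mbt KD, 70.6 to 71.3 in Lint-1 KD and 90.2 to 116.5 in Lint-O KD. Without vas, they summed to 14.1 to 20.1, 58.0 to 63.3, 58.4 to 58.8 and 35.8 to 44.6 CPM in the same order. osk, a determinant of germ plasm, had no count in L(3)mbt KD and Lint-O KD, and zpg, a germline gap junction gene, had none in the control and Lint-O KD. The 5 fat body markers summed to 0.312 to 1.66 CPM in the control, 6.63 or more in L(3)mbt KD, up to 4.14 in Lint-1 KD and 2.15 to 3.35 in Lint-O KD, and Fbp1, a larval fat body gene, had no count in any library. Nearly all of this was the yolk protein gene Yp3, the only one of the 5 to be tested, which rose from 0.987 ± 0.955 to 7.71 ± 1.53 CPM in L(3)mbt KD (edgeR adjusted p = 0.00851), where Yp1 and Lsp2 also had no count. Of the 4 muscle markers, which summed to 30.7 to 43.1 CPM in the control, 19.0 to 24.6 in L(3)mbt KD, 18.8 to 21.4 in Lint-1 KD and 30.8 to 37.7 in Lint-O KD, Act57B was lower in L(3)mbt KD and Lint-1 KD. The part of these cell types in the result was not tested. In bulk RNA a change in the number of expressing cells and a change in RNA per cell cannot be told apart.

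Between knockdowns, no member passed edgeR's test in any of the 3 pairs (0 of 9 each; DESeq2 also called 0 of 9 in each pair), where 0.0728% of tested genes were called between Lint-1 KD and L(3)mbt KD, 0.704% between Lint-O KD and L(3)mbt KD and 1.18% between Lint-O KD and Lint-1 KD. Unadjusted p-values under 0.05 were found for 1 member (CG9925) in the first pair, 2 (tej and CG9925) in the second and 1 (squ) in the third. No share of all tested genes at this unadjusted threshold is given, here or below, so such counts are not read as an excess. CG9925 was the most unequal of the members. Its mean was 1.96 ± 0.301 CPM in L(3)mbt KD against 0.524 ± 0.149 in Lint-O KD and 0.250 ± 0.0907 in Lint-1 KD. Both Lint-1 KD libraries stood at or below the floor. The log2 difference was -2.95 for Lint-1 KD minus L(3)mbt KD (95% interval -4.34 to -1.57, edgeR adjusted p = 0.227) and -1.89 for Lint-O KD minus L(3)mbt KD (-3.15 to -0.63, edgeR adjusted p = 0.179).

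The order of the 3 knockdowns was not the same for the silent members. By mean level, qin ran from L(3)mbt KD (13.6 ± 7.25 CPM) over Lint-O KD (12.7 ± 0.364) to Lint-1 KD (7.91 ± 2.96), tej from L(3)mbt KD (2.19 ± 1.05) over Lint-1 KD (1.62 ± 0.213) to Lint-O KD (0.891 ± 0.0746), and CG9925 from L(3)mbt KD over Lint-O KD to Lint-1 KD. None of the neighbouring levels in these orders differed past the test. For qin the log2 difference of Lint-O KD minus L(3)mbt KD was -0.10, with a 95% interval of -0.94 to 0.74, and that of Lint-O KD minus Lint-1 KD was 0.68 (-0.18 to 1.53). For tej, Lint-O KD minus L(3)mbt KD was -1.29 (-2.52 to -0.06, edgeR adjusted p = 0.317) and Lint-1 KD minus L(3)mbt KD -0.44 (-1.59 to 0.72). All of these intervals but the first reach differences of more than 2-fold. The RNAi targets fell by unequal amounts in their own knockdowns, with log2 fold changes of -0.91 (l(3)mbt), -2.31 (Lint-1) and -3.59 (Lint-O). The bearing of this on the order was not tested.

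Of the expressed members, spn-E and BoYb encode helicase-related proteins. spn-E (3R, 15837419 to 15844415), a DExH-box helicase with a Tudor domain that is needed for ping-pong, stood at 165.4 and 204.3 CPM in the control. It stood at 206.1 and 138.7 CPM in L(3)mbt KD, 203.5 and 157.6 in Lint-1 KD and 149.7 and 187.6 in Lint-O KD. The groups overlapped throughout, and log2 fold changes against the control lay between -0.13 and -0.03, with 95% intervals from -0.62 to 0.45. Pbp45 lies wholly within the span of spn-E, stood at 3.23 ± 0.651 CPM in the control and did not pass in any knockdown.

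BoYb (3L, 22901912 to 22905470), a germline relative of Yb, stood at 29.3 and 31.0 CPM in the control. It stood at 24.6 and 20.8 CPM in L(3)mbt KD, 25.3 and 23.2 in Lint-1 KD and 23.4 and 28.6 in Lint-O KD. All 6 knockdown libraries lay below both control libraries. The log2 fold changes were -0.41 (95% interval -0.79 to -0.03, edgeR adjusted p = 0.177), -0.31 (-0.70 to 0.07, edgeR adjusted p = 0.297) and -0.21 (-0.60 to 0.17, edgeR adjusted p = 0.776), none past the test.

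The Tudor scaffolds krimp, CG8920 and tud follow. krimp (2R, 16238103 to 16240722), whose protein Krimper binds both Aub and AGO3, stood at 105.1 and 127.3 CPM in the control, 118.4 and 60.4 in L(3)mbt KD and 102.4 and 119.3 in Lint-O KD. In Lint-1 KD it had 2151 and 1284 counts, or 83.6 ± 23.2 CPM, against 1896 and 2448 counts in the control, with Lint-1 KD 1 the deepest of the 8 libraries. Both Lint-1 KD libraries were below the control, while L(3)mbt KD held a library within the control range and the lowest of all 8. The log2 fold changes were -0.38 (95% interval -1.05 to 0.29, edgeR adjusted p = 0.482), -0.47 (-1.14 to 0.19, edgeR adjusted p = 0.361) and -0.07 (-0.73 to 0.60, edgeR adjusted p = 0.992). Without L(3)mbt KD 1, krimp passed as lower in L(3)mbt KD (log2 fold change -0.96, edgeR adjusted p = 0.0263), and that call then rests on the single library L(3)mbt KD 2.

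CG8920 (2R, 20319180 to 20325973), a relative of tej that acts with qin, stood at 70.2 and 75.8 CPM in the control. It stood at 84.4 and 63.4 CPM in L(3)mbt KD, 74.2 and 67.5 in Lint-1 KD and 60.1 and 72.5 in Lint-O KD. It had the narrowest intervals of the 9 members: log2 fold changes were 0.02 (95% interval -0.36 to 0.39), -0.04 (-0.42 to 0.33) and -0.14 (-0.51 to 0.24), so a 2-fold change in either direction lies outside each interval. MED8 overlaps CG8920 by 130 bases, stood at 40.7 ± 0.394 CPM in the control and did not pass in any knockdown.

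tud (2R, 21183322 to 21192913), the founding Tudor gene, needed for germ plasm and the formation of pole cells, stood at 25.6 and 44.4 CPM in the control. It stood at 39.7 and 19.3 CPM in L(3)mbt KD, 20.7 and 18.1 in Lint-1 KD and 24.5 and 36.3 in Lint-O KD. Only in Lint-1 KD did both libraries lie below both control libraries. The log2 fold change there was -0.85 (95% interval -1.68 to -0.02, edgeR adjusted p = 0.201), and it passed without the low-count filter (adjusted p = 0.0366). In L(3)mbt KD and Lint-O KD it was -0.25 (-1.06 to 0.57) and -0.20 (-1.02 to 0.62).

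squ (2L, 16680054 to 16681653) encodes Squash, a nuage protein that associates with Aub. It stood at 14.0 and 19.2 CPM in the control, 19.8 and 19.6 in L(3)mbt KD, 21.99 and 22.1 in Lint-1 KD and 14.1 and 15.8 in Lint-O KD. Both L(3)mbt KD and Lint-1 KD libraries lay above both control libraries, with log2 fold changes of 0.24 (95% interval -0.19 to 0.68, edgeR adjusted p = 0.486) and 0.40 (-0.03 to 0.84, edgeR adjusted p = 0.237). The gene lies wholly within the span of grp, a checkpoint kinase gene (Chk1). In the same comparisons grp went from 136.5 ± 5.63 CPM to 171.0 ± 22.5 (log2 fold change 0.32, edgeR adjusted p = 0.197) and 190.3 ± 29.7 (0.48, edgeR adjusted p = 0.0719). How the counting assigned reads of the shared span is not stated.

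**Figure D2:**
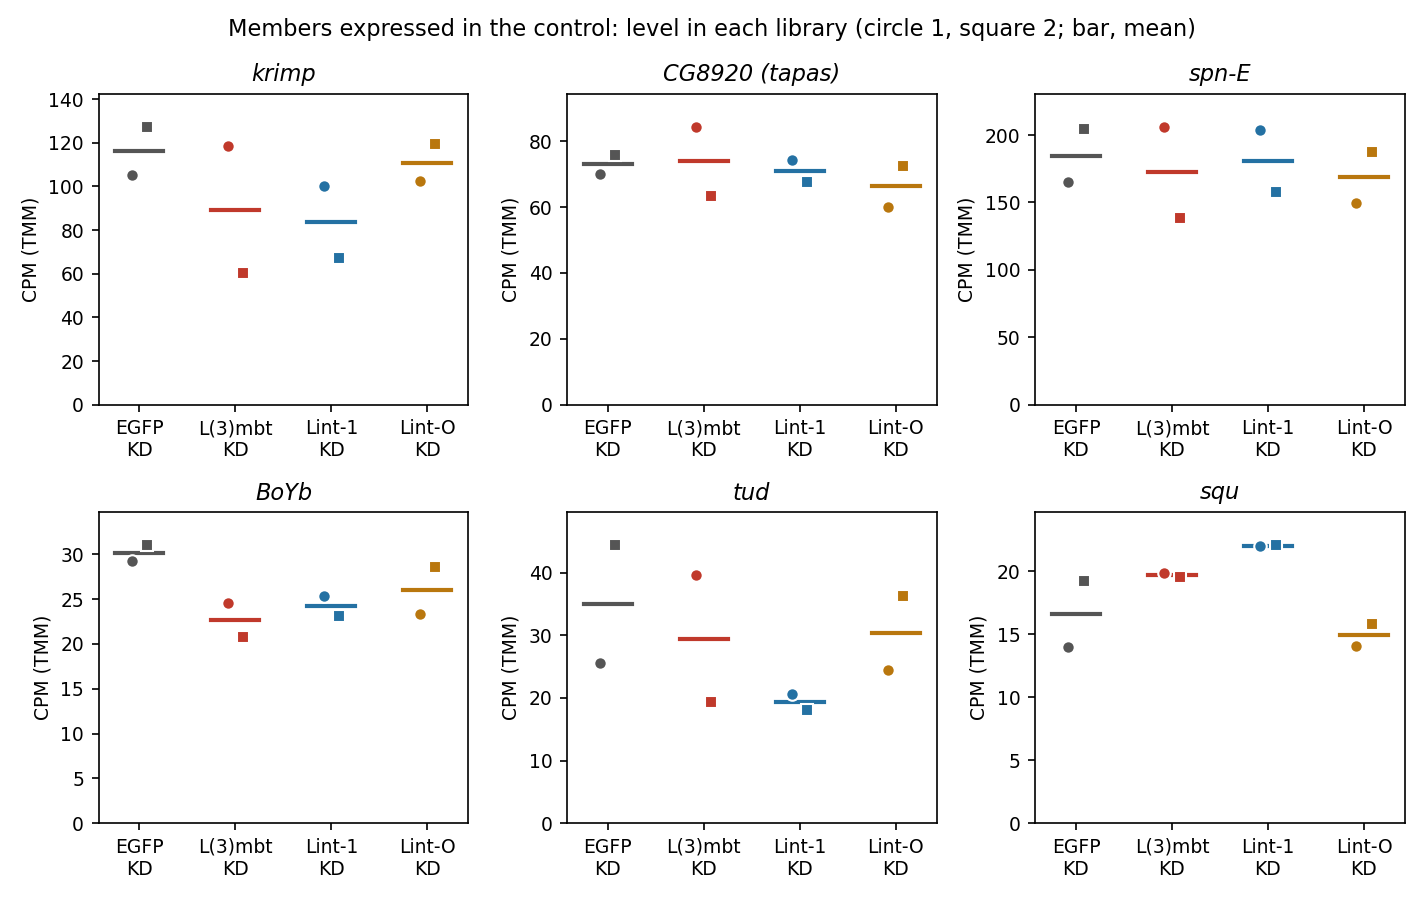
Level of the 6 members expressed in the control in each of the 8 libraries (y axis, TMM-normalised CPM from 0; x axis, group; circle, library 1; square, library 2; bar, mean of the 2). Knockdown and control libraries overlapped in all 3 comparisons for spn-E and CG8920, while the 6 knockdown libraries of BoYb lay between 20.8 and 28.6 CPM, below the control at 29.3 and 31.0.

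As a class, the 6 expressed members had a median log2 fold change of -0.17 in L(3)mbt KD, -0.18 in Lint-1 KD and -0.15 in Lint-O KD, beside -0.06, -0.05 and -0.03 for the 6516 tested genes at 5 CPM or more in a control library. Of those genes 6.41%, 5.82% and 2.33% were called in either direction, against 0 of 6 members in each comparison. Unadjusted p-values under 0.05 were found for BoYb in L(3)mbt KD, tud in Lint-1 KD and no expressed member in Lint-O KD, and DESeq2 also called 0 of 6 in each. The share of the 6516 genes at that unadjusted threshold is not given. Non-overlapping libraries were common in this class. They lay below the control in 26.4% of its genes in L(3)mbt KD (1 of the 6 members, BoYb), 31.0% in Lint-1 KD (3 of 6: BoYb, krimp and tud) and 20.1% in Lint-O KD (1 of 6, BoYb). They lay above in 18.6% (1 of 6, squ), 23.1% (1 of 6, squ) and 16.0% (0 of 6).

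**Figure D3:**
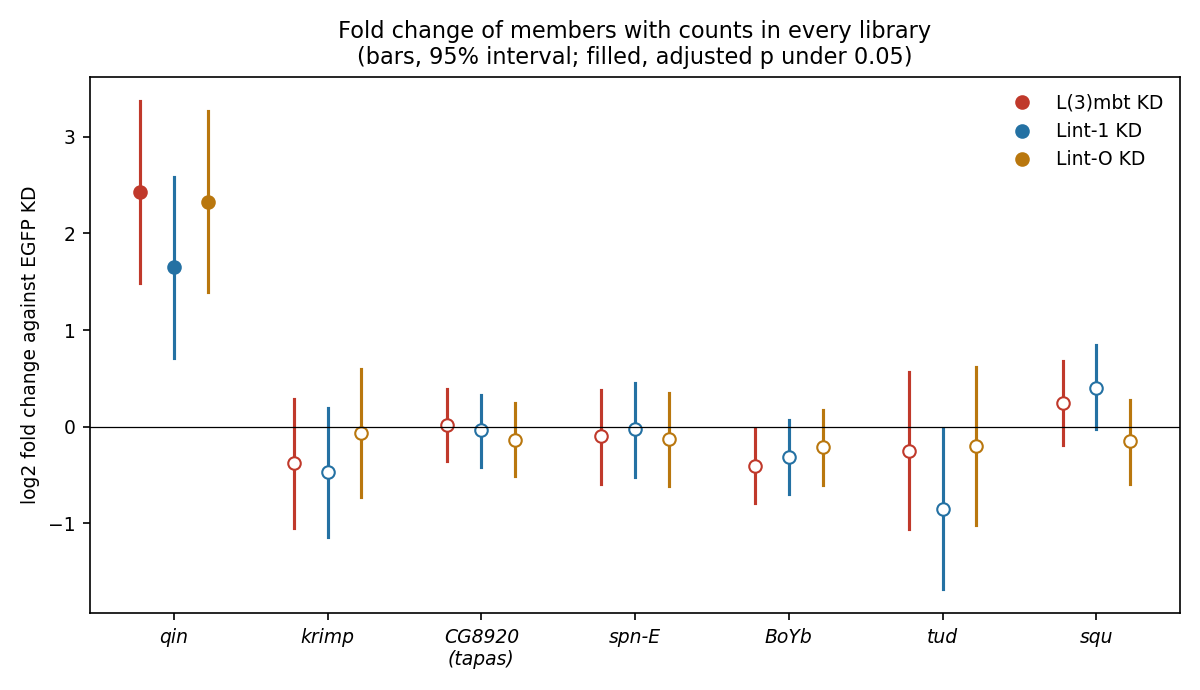
log2 fold change against EGFP KD (y axis) of the 7 members with counts in every library (x axis), by knockdown (colour), with 95% intervals from edgeR's quasi-likelihood fit. Filled points passed an adjusted p of 0.05: those of qin, at 2.43, 1.65 and 2.33. All others are open, and the lowest was tud in Lint-1 KD at -0.85.

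**Figure D4:**
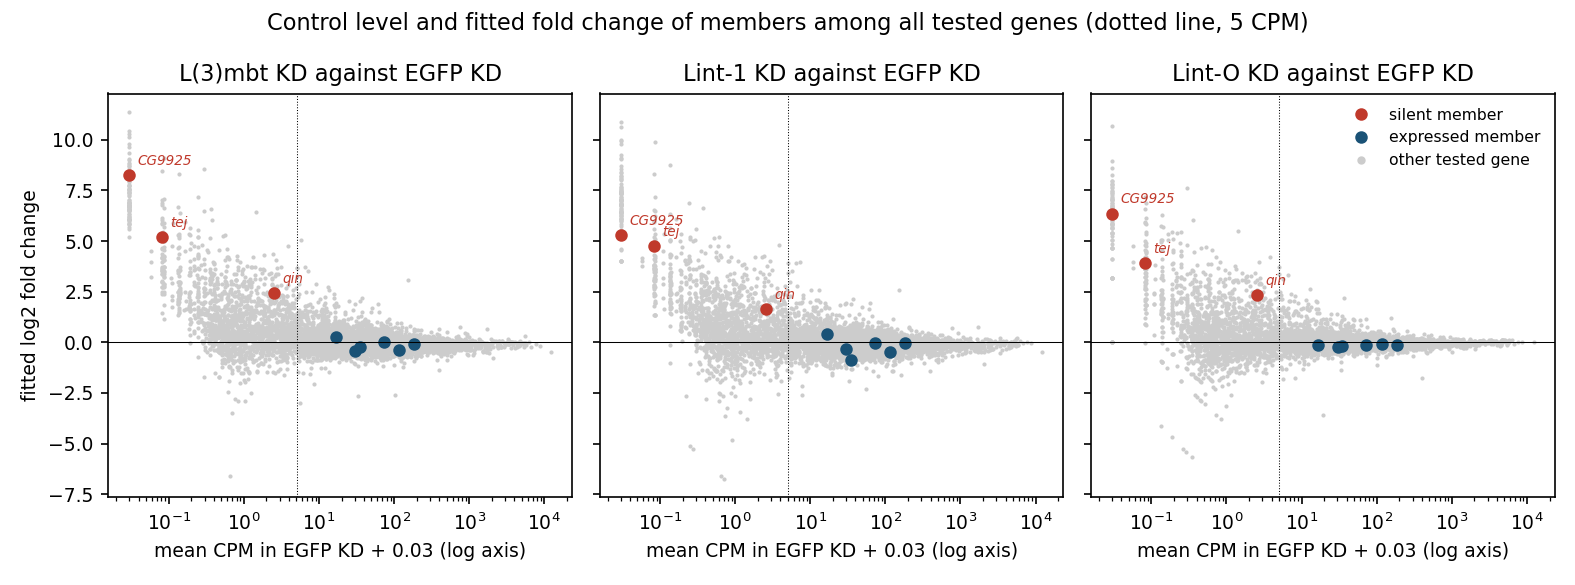
Fitted log2 fold change (y axis) against mean control level (x axis, log scale) for 8244 tested genes in each knockdown, with the silent members in red, the expressed members in blue and a dotted line at 5 CPM. Fitted values of genes at or near 0 in the control, tej and CG9925 included, depend on the fit's prior count and show direction only. The red points lie above 0 in all 3 panels, as do many grey points at the same control levels, and the blue points lie within 0.85 of 0.

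Among the expressed members, the spread within groups took the same direction for most genes. In EGFP KD and Lint-O KD, library 1 was the lower of the 2 for all 6. Differences at least as large in the same direction were found in 5.11% (tud) to 43.6% (BoYb) of tested genes in EGFP KD. For Lint-O KD these shares ran from 7.13% (tud) to 34.3% (squ). In L(3)mbt KD and Lint-1 KD library 1 was the higher for krimp, CG8920, spn-E, BoYb and tud, while squ was nearly level, with ratios of 1.01 and 0.998. In L(3)mbt KD the ratio of library 1 to library 2 was 2.06 for tud, 1.96 for krimp, 1.49 for spn-E, 1.33 for CG8920 and 1.18 for BoYb. A difference at least as large in the same direction was found in 3.92% of tested genes for tud, 4.68% for krimp, 13.99% for spn-E, 20.3% for CG8920 and 29.55% for BoYb. qin had a ratio of 2.21 there (2.96% of tested genes), whereas tej went the other way, at 0.494 (1.87% of tested genes).

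**Figure D5:**
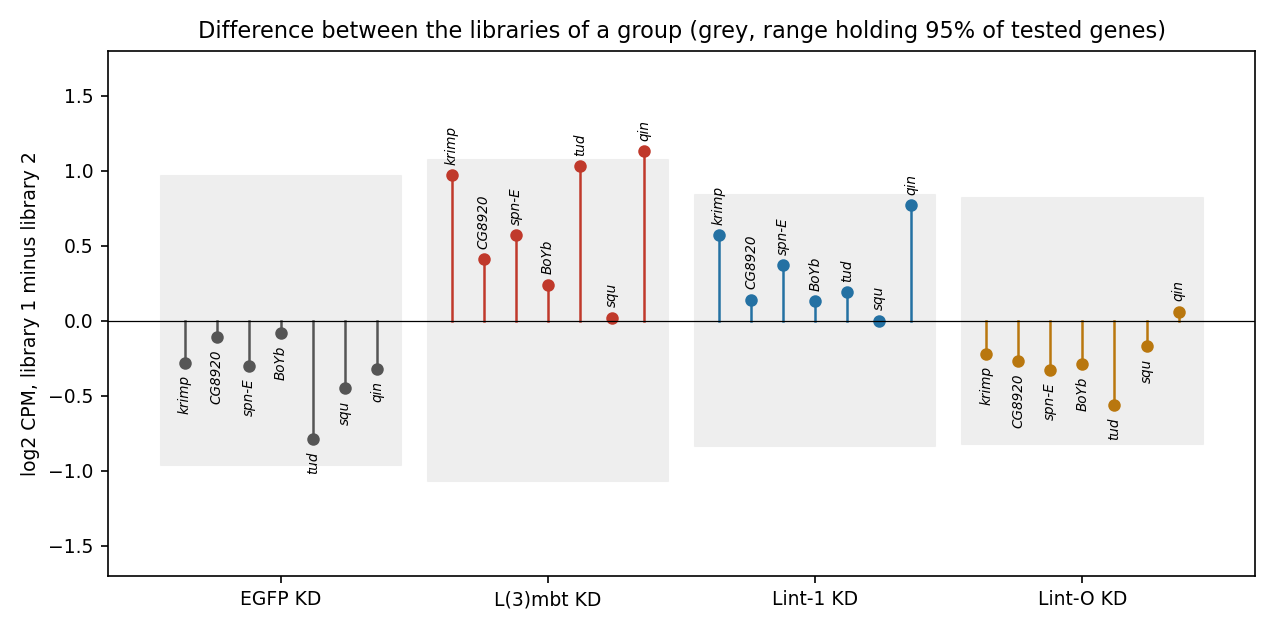
Difference in log2 CPM between library 1 and library 2 of each group (y axis) for the 6 expressed members and qin (named points), by group (x axis). The grey band is the range that holds 95% of tested genes. Points lie below 0 in EGFP KD and Lint-O KD, except qin in Lint-O KD at 0.06, and above or, for squ, level with 0 in L(3)mbt KD and Lint-1 KD, where qin (1.13), tud (1.03) and krimp (0.97) in L(3)mbt KD are the largest.

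Patterns over the 8 libraries were compared on log2 CPM. On this scale, the 3 silent members had Pearson correlations of 0.780 to 0.813 with each other. They were grouped by low control levels, and tej and CG9925 entered the test only through knockdown libraries. Positive values among the 3 were thus likely in advance. Among the expressed members, krimp had 0.846 with tud and 0.795 with BoYb. spn-E had 0.898 with CG8920. squ had negative values against krimp (-0.365), BoYb (-0.317) and tud (-0.208) and positive ones against CG8920 (0.372) and spn-E (0.293). Its highest value among the members was 0.549, with the silent member tej. These are descriptions over 8 libraries that share groups and depth, and the spread between libraries 1 and 2 of a group enters them. The gene most like spn-E among all tested genes was piwi, which encodes the PIWI protein of somatic cells (r = 0.983), at 636.1 CPM in the control. Neither spn-E nor piwi was called in any knockdown. Both were higher in library 2 in EGFP KD and Lint-O KD, and in library 1 in L(3)mbt KD and Lint-1 KD. For piwi these were 581.2 and 691.0 CPM in the control and 699.8 and 477.4 in L(3)mbt KD. The tested genes most like krimp were RAF2, ncm and alpha-Cat (r = 0.993 to 0.994), and those most like tud were mim, Rala and l(2)gl (0.988 to 0.995). The genes most like qin were TwdlBeta, CG34288 and dpr19 (0.970 to 0.979), the first 2 of which were at 0 in the control. The genes most like tej were Idh, CycH and CG13890 (0.987 to 0.990), all expressed in the control at 42.8 to 144.8 CPM, and those most like CG9925 were CG33468, PGRP-SA and CR44458 (0.972 to 0.986). CG8920 was nearest to CG42724, CG9626 and mus308 (0.962 to 0.979), BoYb to CG15141, PTP-ER and dco (0.963 to 0.991), and squ to CG17364, Inr-a and CG10555 (0.961 to 0.977).

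The partners of these proteins in the germline pathway also divided by their control level. Of 7 ping-pong and nuage partners, vas, aub and AGO3 were higher in each of the 3 knockdowns and mael, shu, csul and vls did not pass in any. The 3 that rose were low in the control, at 1.40 ± 0.215 (vas), 2.64 ± 0.526 (aub) and 2.14 ± 0.131 CPM (AGO3). The 4 others stood there at 49.5 CPM or more. Of all tested genes under 5 CPM in both control libraries, 27.6%, 23.7% and 17.1% were called higher in L(3)mbt KD, Lint-1 KD and Lint-O KD. At 5 CPM or more in a control library, 6.41%, 5.82% and 2.33% were called in either direction. A division by control level is thus not particular to these partners. The median log2 fold change of the 7 was 0.12 in L(3)mbt KD, 0.24 in Lint-1 KD and 0.29 in Lint-O KD, beside -0.01 for all tested genes in each comparison.

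In Lint-1 KD, aub stood at 39.8 and 32.7 CPM and rose by 3.77 on the log2 scale (edgeR adjusted p = 1.24e-05), and AGO3 stood at 5.998 and 7.12 CPM and rose by 1.61 (edgeR adjusted p = 0.00495). vas stood at 12.1 and 12.5 CPM there and rose by 3.14 (edgeR adjusted p = 3.03e-05), against 122.2 and 124.8 in L(3)mbt KD and 54.4 and 71.9 in Lint-O KD. vas was the only one of the 7 to differ past the test between knockdowns, in all 3 pairs: by -3.32 for Lint-1 KD minus L(3)mbt KD (edgeR adjusted p = 0.000113), -0.97 for Lint-O KD minus L(3)mbt KD (0.0364) and 2.36 for Lint-O KD minus Lint-1 KD (0.000442), on the log2 scale. tej, whose protein recruits Vas, was by contrast at 1.77 and 1.47 CPM in Lint-1 KD and at 0.838 and 0.944 in Lint-O KD, a difference that did not pass the test (edgeR adjusted p = 0.448). The call of AGO3 in Lint-O KD did not hold when either EGFP KD library or Lint-O KD 2 was removed (adjusted p from 0.0525 to 0.0769).

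Primary piRNA biogenesis is the branch that somatic cells use. Of 13 of its genes, 1 was higher in L(3)mbt KD, the piRNA methyltransferase gene Hen1, which went from 11.3 ± 1.53 to 18.3 ± 0.812 CPM (a log2 difference of 0.70 with an edgeR adjusted p of 0.0416). Its call was lost whichever library was removed (adjusted p from 0.0685 to 0.267), with the replicate block (0.0664, or 0.0528 with the gene-span trend removed) and with only the 4 libraries compared (0.142). None was called in Lint-1 KD or Lint-O KD by edgeR or DESeq2, with 2 (zuc and Hen1) and 1 (Hen1) unadjusted p-values under 0.05. The median log2 fold change of the 13 was 0.00, 0.09 and 0.02 in L(3)mbt KD, Lint-1 KD and Lint-O KD.

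Tudor-domain genes outside the 9 were mostly expressed in the control as well. Of 10 on the list, fs(1)Yb, SoYb, vret and papi of the piRNA pathway and Tudor-SN, CG9684, Tdrd3 and Smn stood at 34.9 CPM or more in the control, and none of these 8 was called in any knockdown. CG15042 had at most 3 counts in a library and was not tested. CG15930, with 0 and 2 counts in the control, had 32 and 11 in L(3)mbt KD (1.66 and 0.566 CPM). Over the 2 control counts this was 20.7 times as much (95% counting interval 3.42 to 873.3, edgeR adjusted p = 0.0424). It was the only one of the 10 to be called. Removal of any library other than L(3)mbt KD 2 ended that call (adjusted p from 0.0612 to 0.217), as did the replicate block (0.0844, or 0.0593 with the gene-span trend removed) and a fit of only the 4 libraries compared (0.0945). In Lint-1 KD and Lint-O KD, where it did not pass, CG15930 had 20 and 10 counts over both libraries. edgeR and DESeq2 called 0 of the 9 tested genes in these comparisons, with 2 (Tudor-SN and CG15930) and 0 unadjusted p-values under 0.05.

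The nearest tested genes on either side of the silent members did not pass the test. CG9925 lies between Ipp, 238 bases away, and Orc2, 711 bases away, which stood at 80.6 and 41.9 CPM in the control and had log2 fold changes of -0.30 to 0.19 in the 3 knockdowns (edgeR adjusted p from 0.281 to 0.998). Beside tej, Ih lies 8 bases away and stood at 0.322 CPM in the control and 0.258 to 0.448 in the knockdowns. qin has CG7694 at 301 bases, which went from 6.99 to 3.72 CPM in L(3)mbt KD (log2 fold change -0.91, edgeR adjusted p = 0.0502), and CstF-64 at 9481 bases. Genes within the qin span, CG14304, CG14305, CG7695 and CG14301, had 0 to 2 counts in every library. CG31224, which overlaps the end of qin by 17 bases, stood at 34.5 ± 13.1 CPM in the control and did not pass in any knockdown.

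Among the neighbours of expressed members, the case beside spn-E is given here, and was chosen after its values were seen. cv-d, 51 bases from spn-E, stood at 3.71 and 6.03 CPM in the control, 31.9 and 29.7 in L(3)mbt KD, 28.4 and 21.3 in Lint-1 KD and 21.0 and 24.5 in Lint-O KD. Its log2 fold changes were 2.66 (edgeR adjusted p = 0.000196), 2.35 (edgeR adjusted p = 0.000479) and 2.22 (edgeR adjusted p = 0.000830), and all 3 calls held under all 19 alternatives. spn-E itself did not pass in any of them. Of all tested genes, 9.58% were called higher in L(3)mbt KD, 8.41% in Lint-1 KD and 5.2% in Lint-O KD, so calls of neighbours are not read as an excess. Of the 18 nearest tested neighbours of the 9 members, 1 other was called: CG13868, 2263 bases from CG8920, in L(3)mbt KD. There CG13868 stood at 35.0 CPM against 16.4 in the control (log2 difference 1.09, edgeR adjusted p = 0.0426). Its call was lost without EGFP KD 1, EGFP KD 2, L(3)mbt KD 2, Lint-1 KD 1 or Lint-1 KD 2 (adjusted p from 0.0677 to 0.207).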

How the data were processed

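The authors deposited raw counts of reads for every gene in the 8 RNA libraries. Per the labels' protocols polyadenylated RNA was made into stranded libraries, and the submitters' processing notes name HISAT2, HTSeq, edgeR and dm6. Tool roles, annotation release and strand setting are not stated, which leaves overlapping genes uncertain. The 6 ChIP and input samples were not analysed here. The 5 special lines (15.0% to 18.5% of reads without a gene, 1.05% to 1.13% ambiguous) were left out.

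edgeR 4.0.16 in R 4.3.3 was used: a filter by filterByExpr, TMM scaling (factors 0.948 to 1.056), 1 glmQLFit model of group on the 8 libraries (residual degrees of freedom 4) and glmQLFTest for 6 comparisons, two-sided, with Benjamini-Hochberg adjustment over 8244 genes. The biological coefficient of variation was 15.4%. Intervals of log2 fold changes use each gene's standard error; counting intervals are exact (95%). The procedure was tested on simulated data. These left out genes with almost no control counts, tej and CG9925 included, and did not have counts in pairs.

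Positions come from the RefSeq gene table (Release 6, dm6). The members, lists and tests were chosen with earlier results of these data known. All members were named; of each list up to 5 called genes; and per member the 3 tested genes of highest Pearson correlation (log2 CPM, prior count 3). Neighbours were added later.

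Alternatives were DESeq2 1.42.0, other scalings and filters, fewer libraries, a replicate block and removal of a gene-span trend (lowess span 0.3).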

Additional observations from a re-analysis of the deposited data

How the results depend on the processing

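Over the 9 members and 6 comparisons, 935 of 1023 values under an alternative kept their direction and their side of the threshold, 29 lost a call, 12 gained one, and 47 values that had no call changed sign; no called value reversed. The 3 members called in L(3)mbt KD against the control were called under all 19 alternatives or left-out libraries, with 3 to 4 members called when a library was left out. Leaving out a library gave 1 to 2 members in Lint-1 KD (2 with all libraries), 0 to 2 in Lint-O KD (3 with all libraries) and 0 in each pair of knockdowns. In Lint-O KD, 1 member, qin, was called with only the 4 libraries compared, with the replicate block and with counts halved. In Lint-1 KD the replicate block left 1 member, tej. With a library left out, a group of 1 is assumed to vary like the others. The replicate numbers are not stated to mark shared cultures. Between groups, the library 1 minus library 2 differences had correlations over genes of -0.377 to 0.356, so the numbers do not pair the libraries. A crossed replicate block, chosen after seeing the data, called 5, 5 and 3 members in L(3)mbt KD, Lint-1 KD and Lint-O KD, and 1, 0 and 4 between Lint-1 KD and L(3)mbt KD, Lint-O KD and L(3)mbt KD, and Lint-O KD and Lint-1 KD. Halving the counts was also chosen after seeing the data. Depth limits tej and CG9925, whose control counts lie under the floor.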
